A study of Mus musculus with 4 samples.

Results

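Radial glia are the neural stem cells of the embryonic forebrain, and 7 of their marker genes, Nes, Vim, Fabp7, Slc1a3, Prom1, Hmga2 and Id4, were examined for binding of CTCF in and around them. The genes were taken by symbol from 21887 protein-coding genes on chromosomes 1 to 19, X and Y of the mm10 RefSeq gene table, and all 7 were found. The series is a ChIP-seq study, in which DNA bound by a protein is precipitated with an antibody, here a rabbit antibody to CTCF, and sequenced. The labels give embryonic day 13.5 for both tissues, while e14 opens the track name in the telencephalon file, and the stage could not be checked. One group was the telencephalon and the other was the medial ganglionic eminence (MGE), the ventral part of the telencephalon from which many cortical interneurons arise. Each had 1 CTCF library and 1 input library without antibody. No genotype, strain or treatment is named for either tissue, and the labels describe dissection of the MGE for the telencephalon samples as well. The authors' deposited CTCF peak lists, with a chromosome, start and end for each peak, were compared. They hold no expression values, so neither the tissue labels nor the expression of the 7 markers could be checked.

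The MGE list had 25625 peaks on these chromosomes and the telencephalon list had 31886. Neither list gives a height, a read count or a p-value, so the depth behind a peak is unknown and width was its sole measured property. MGE peaks were at least 244 bp wide with a median of 300 bp, and telencephalon peaks at least 150 bp with a median of 276 bp. The track names of the lists end in p01 for MGE and p001 for telencephalon, and the library kits differed between tissues. Kit, calling and tissue cannot be told apart. With 1 library per tissue there is no replicate and no test between tissues, and the ranges in brackets after a share are 95% Clopper-Pearson intervals (exact), which cover counting error alone. Sharing means that peaks of the 2 lists have 1 bp or more in common.

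Radial glia span the wall of the forebrain, with their cell bodies in the ventricular zone and a long fibre reaching the outer surface along which new neurons migrate. They divide to renew themselves and to give neurons, and later glia. CTCF is a zinc finger protein that, with the ring-shaped cohesin complex, holds chromatin loops and insulates neighbouring domains from each other. The 7 markers cover several functions. Nes (nestin) and Vim (vimentin) encode intermediate filament proteins, Fabp7 a fatty acid binding protein and Slc1a3 the glutamate transporter GLAST. Prom1 encodes the membrane protein prominin-1 (CD133), Hmga2 a chromatin protein that bends DNA, and Id4 an inhibitor of basic helix-loop-helix transcription factors.

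Promoter sequences are shown for the start that a peak overlapped, for the member start nearest to a peak, and for the member promoter with a match to a short CTCF core. All are RefSeq sequences on GRCm38.p6, which has mm10 coordinates, and run from 250 bases before the start to 50 bases after it. Some neighbouring genes have no promoter window in the RefSeq table, and a window need not lie at the annotated end of its gene. Among the windows given within 100 kb of the 7 genes, a single window was overlapped by a peak. It belonged to A330048O09Rik, a long noncoding RNA gene 6390 bp from Id4 on the minus strand (window chr13:48273835-48274134). Shared peaks covered 211 bases of it in the MGE list and 246 in the telencephalon list. The capitals mark the 211 bases, positions 90 to 300 of the window, that lay in peaks of both lists.
A330048O09Rik: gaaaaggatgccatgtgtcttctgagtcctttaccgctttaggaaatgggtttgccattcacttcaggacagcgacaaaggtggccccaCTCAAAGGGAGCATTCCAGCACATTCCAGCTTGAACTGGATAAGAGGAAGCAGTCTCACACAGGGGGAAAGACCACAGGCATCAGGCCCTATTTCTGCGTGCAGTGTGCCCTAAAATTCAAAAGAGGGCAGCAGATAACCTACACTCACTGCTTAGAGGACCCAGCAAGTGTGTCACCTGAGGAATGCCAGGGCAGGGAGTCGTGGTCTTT
The next window is that of Nes (plus strand, chr3:87970843-87971142), which is shown because a shared peak ended 416 bp (telencephalon) or 438 bp (MGE) before it. It has no capitals.
Nes: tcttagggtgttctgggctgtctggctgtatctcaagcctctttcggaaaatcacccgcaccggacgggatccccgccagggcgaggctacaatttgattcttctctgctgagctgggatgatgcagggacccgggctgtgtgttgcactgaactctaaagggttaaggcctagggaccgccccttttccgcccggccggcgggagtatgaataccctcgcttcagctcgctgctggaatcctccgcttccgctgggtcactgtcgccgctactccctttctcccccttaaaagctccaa
The Fabp7 window (plus strand, chr10:57784673-57784972) holds the matches to the short CTCF core defined below, in capitals. It lay 11302 bp (telencephalon) and 36283 bp (MGE) from the nearest peak.
Fabp7: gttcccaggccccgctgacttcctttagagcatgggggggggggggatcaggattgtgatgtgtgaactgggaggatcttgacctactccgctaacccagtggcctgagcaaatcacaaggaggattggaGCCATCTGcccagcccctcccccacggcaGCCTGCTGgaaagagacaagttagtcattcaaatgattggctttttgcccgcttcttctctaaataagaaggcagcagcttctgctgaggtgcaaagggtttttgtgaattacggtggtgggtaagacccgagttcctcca

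The 7 genes had 8 promoter windows in the RefSeq table, with 2 for Prom1. None of the 8 was overlapped by a peak in either list (interval 0 to 36.9%). Among all 32851 promoter windows, 3.83% were overlapped in the MGE list and 6.46% in the telencephalon list. A short CTCF core, CAGNNGGC or TAGNNGGC on either strand, was found in 33.2% of all windows and in 62.7% and 58.2% of those overlapped by an MGE or a telencephalon peak. It was found in 1 of the 8 member windows. In the Fabp7 window it occurred 2 times, as GCCATCTG and GCCTGCTG, at positions 131 and 160 of the window, and neither match lay in a peak. The CTCF core consensus of 12 letters, which contains the short core, was found in 0.557% of all windows and in 10.6% and 7.36% of those with an MGE or a telencephalon peak. It matched none of the member windows and not that of A330048O09Rik. The A330048O09Rik window had no match to the short core either. Near matches to these patterns were not counted. The sequences of the peaks themselves were not used here.

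In the genes and the 100 kb on either side, 23 MGE peaks and 37 telencephalon peaks were found. Of these, 18 in each list were shared, so the loci held 18 common positions, 5 MGE peaks without a telencephalon partner and 19 telencephalon peaks without an MGE partner. All 7 genes had at least 1 shared peak in this window. A peak within 100 kb is common, since 90.5% of protein-coding genes had one in the MGE list and 88.9% in the telencephalon list. Shared peaks made up 78.3% of the members' MGE peaks (56.3 to 92.5%) and 48.6% of their telencephalon peaks (31.9 to 65.6%). Over all peaks within 100 kb of a protein-coding gene the shares were 66.8% and 48.2%, inside both intervals. The median member had 3 MGE and 4 telencephalon peaks, against 3 and 5 over all protein-coding genes. In this respect the markers as a group lay close to other genes. The quartiles over all protein-coding genes were 2 and 5 peaks in MGE and 2 and 8 in telencephalon. Among the members, Nes alone lay outside them, with 11 telencephalon peaks. The map shows the single loci.

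**Figure D1:**
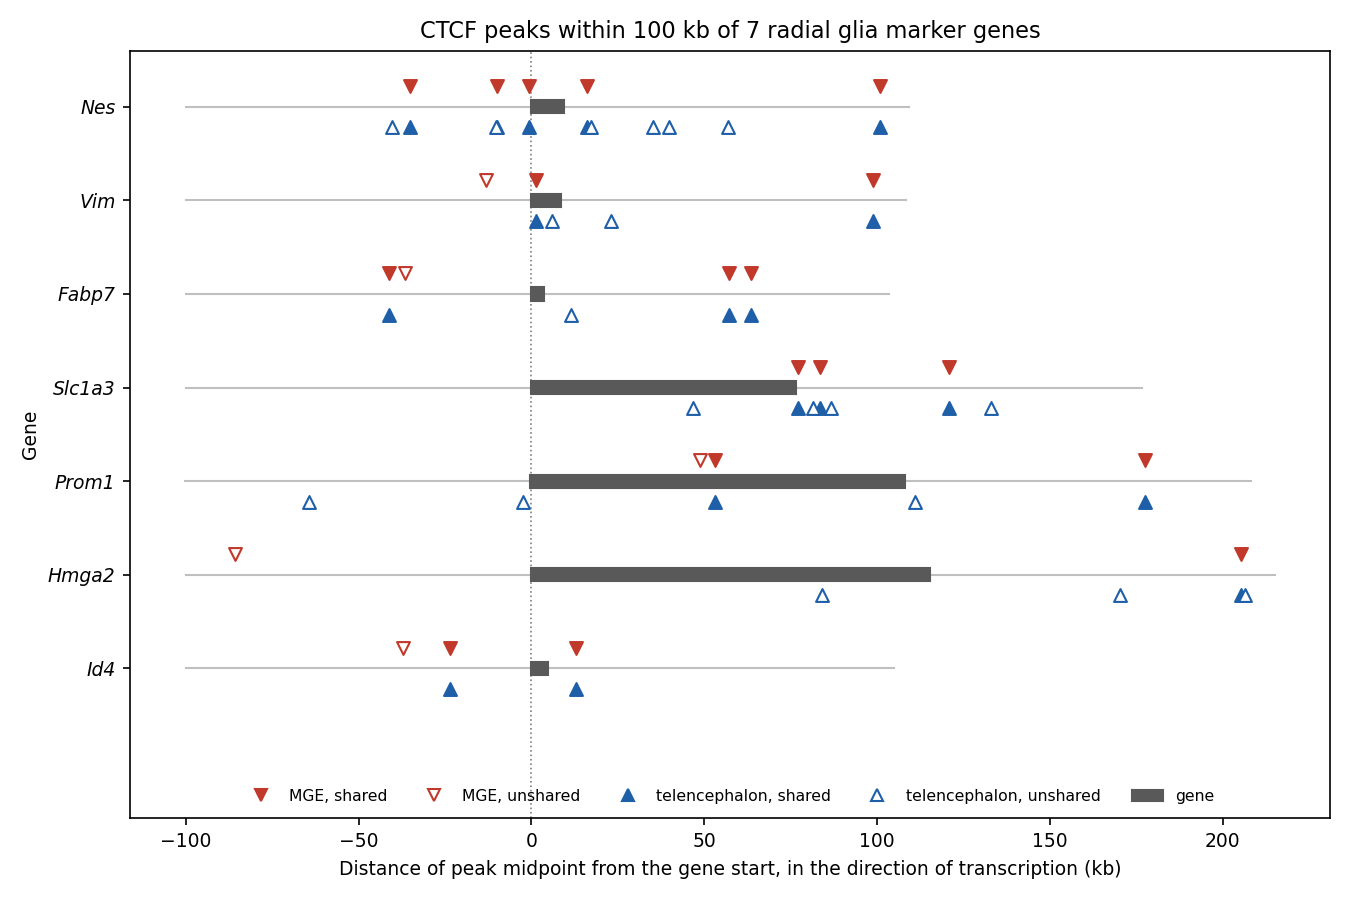
CTCF peaks around the 7 genes. The horizontal axis is the distance in kb of each peak midpoint from the start of the gene, with transcription running to the right; grey boxes are genes, grey lines the 100 kb on either side, downward red triangles MGE peaks and upward blue triangles telencephalon peaks, filled where shared. Nes has 11 telencephalon peaks and 5 MGE peaks, whereas Id4 has 2 and 3.

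Nes was the locus with the most peaks in both lists. Nestin is the classical marker of neural progenitors, and its gene covers 9359 bp on the plus strand (chr3:87971093-87980451). The window held 5 MGE peaks, all shared, and 11 telencephalon peaks, of which 5 were shared. As many telencephalon peaks or more were found around 11.0% of protein-coding genes, and as many MGE peaks or more around 31.0%. No peak lay inside the gene in either list. Upstream of the start, shared peaks lay 688 bp away in MGE (chr3:87970101-87970405, 305 bp wide) and 666 bp away in telencephalon (chr3:87970090-87970427, 338 bp wide). Their midpoints were 5.5 bp apart. Nes was thereby the single member with a peak within 1 kb of its 5′ end. Over 17492 protein-coding genes with a known strand, 8.03% had such a peak in MGE and 14.1% in telencephalon.

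A wide shared peak lay on the downstream side of Nes. It measured 735 bp in MGE (chr3:87986872-87987606), 6421 bp from the gene, and 701 bp in telencephalon (chr3:87986724-87987424), 6273 bp from it. It lay at the 3′ end of Bcan, which encodes the brain proteoglycan brevican and is transcribed towards Nes. The peak was the widest of the 23 MGE and of the 37 telencephalon peaks. Nes is thus flanked by shared peaks on both sides with 16.5 kb between them and no other protein-coding gene in the interval. Among protein-coding genes, 99.2% had an interval as long or longer, and the median was 217.4 kb. With the gene itself left out, 7.11 kb remained, and 99.0% of genes had as much or more. The interval was the same with the wider 50% of the peaks of each list.

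The other shared peaks around Nes lay further out. One was in the long noncoding RNA gene Gm32518, 9799 bp upstream in MGE (chr3:87960964-87961294) and 9613 bp upstream in telencephalon (chr3:87960986-87961480). One was inside Isg20l2 at 35031 and 34931 bp, where the telencephalon peak was 636 bp wide and the MGE peak 355 bp. The last lay inside Ttc24, 91408 and 91351 bp downstream. The 6 telencephalon peaks without a partner included a 403 bp peak (chr3:87930567-87930969), 4739 bp from any MGE peak. The 403 bp peak covered the annotated 5′ end of Rrnad1, which overlaps the 5′ end of Isg20l2, but no promoter window of the RefSeq table. A 555 bp peak between Bcan and Hapln2 (chr3:88010672-88011226) was wider than 93.5% of its list and lay 23066 bp from any MGE peak. A 267 bp peak lay on the 5′ side of Hapln2, which encodes a link protein that binds hyaluronan in brain matrix. The remaining 3 were 236, 150 and 163 bp wide. The 236 bp peak lay 111 bp from an MGE peak, which its neighbour in the telencephalon list overlapped.

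Vim carried a shared peak inside the gene, close to its start. Vimentin forms filaments in radial glia and also in mesenchymal and vascular cells, so the gene is not particular to one cell type. It covers 8516 bp on the plus strand (chr2:13574311-13582826). The shared peak began 1263 bp after the start in MGE (chr2:13575574-13575927, 354 bp) and 1207 bp after it in telencephalon (chr2:13575518-13575937, 420 bp). The telencephalon list had a further peak inside Vim of 198 bp (chr2:13580129-13580326), 4202 bp from the nearest MGE peak. MGE had 3 peaks in the window and telencephalon 4, of which 2 in each list were shared. The other shared peak lay 90115 bp downstream inside St8sia6, a sialyltransferase gene. An MGE peak of 244 bp, 13142 bp upstream, and a telencephalon peak of 163 bp, 14304 bp downstream, had no partner. Apart from the peak inside the gene, the nearest shared peaks lay 283435 bp upstream and 90115 bp downstream, an interval of 382 kb that also holds Trdmt1. With the wider 50% of peaks it grew to 1017 kb.

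Fabp7, which radial glia express strongly and which is also called brain lipid binding protein, had no peak inside it. The gene covers 3528 bp on the plus strand (chr10:57784923-57788450). In MGE no peak lay within 10 kb. The nearest was an unshared 244 bp peak 36533 bp upstream. In telencephalon an unshared 235 bp peak lay 7824 bp downstream, inside Smpdl3a, 45427 bp from any MGE peak. Each list had 4 peaks in the window, of which 3 were shared. The shared peak 40837 bp upstream was 605 bp wide in MGE (chr10:57743482-57744086) and 446 bp in telencephalon (chr10:57743466-57743911). Downstream, a pair of shared peaks lay 53485 and 59762 bp from the gene in MGE. These flanking peaks enclosed 97.8 kb with Fabp7 and Smpdl3a, and 76.1% of protein-coding genes had an interval as long or longer. The interval was the same with the wider 50% of peaks.

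At Slc1a3 the shared peaks stood on the 3′ side of the gene. GLAST, its product, takes up glutamate in radial glia and astrocytes. The gene covers 76684 bp on the minus strand (chr15:8634124-8710807). A shared peak lay 378 bp past its 3′ end in MGE (chr15:8633386-8633746, 361 bp) and 405 bp past it in telencephalon (chr15:8633435-8633719, 285 bp). The other shared peaks were 6567 and 43879 bp past that end in MGE. Slc1a3 was the single member with a peak within 1 kb of its 3′ end, a class that held 4.38% of genes with a known strand in MGE and 6.35% in telencephalon. On the 5′ side no peak of either list lay within 100 kb, and the nearest were 409214 bp (MGE) and 409078 bp (telencephalon) from the gene. The interval between shared peaks was 486 kb, with Ranbp3l and Nadk2 inside it beside Slc1a3.

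The telencephalon list had 4 more peaks at Slc1a3 than the MGE list, 7 against 3. One lay inside the gene (chr15:8663903-8664058). It was 156 bp wide, and 7.55% of the list was narrower. The others, of 223, 150 and 258 bp, lay 4630, 10037 and 56227 bp past the 3′ end. All 4 were narrower than the median of the list, and the nearest MGE peaks lay between 1715 and 30157 bp from them.

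Prom1 had a shared peak in the middle of the gene. Prominin-1 sits in membrane protrusions, at the apical surface of neural progenitors and in other epithelia. The gene covers 108427 bp on the minus strand (chr5:43993621-44102047), and the promoter table gives starts at positions 44101736 and 44094768. The shared peak was 352 bp wide in MGE (chr5:44048547-44048898) and 469 bp in telencephalon (chr5:44048430-44048898), with the same upper end. A further MGE peak of 244 bp inside the gene (chr5:44052775-44053018) had no partner and lay 3877 bp from any telencephalon peak. Near the gene, but outside it, peaks were found in the telencephalon list alone. One of 172 bp lay 2178 bp before the 5′ end, between Prom1 and the noncoding gene Gm35900 (chr5:44104225-44104396). One of 375 bp lay 2813 bp past the 3′ end (chr5:43990434-43990808), 57739 bp from any MGE peak. In all, the window held 3 peaks in MGE and 5 in telencephalon, of which 2 in each list were shared. The interval between shared peaks outside the gene was 360.0 kb and grew to 861 kb with the wider 50% of peaks.

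Within 100 kb, Hmga2 had the fewest MGE peaks of the 7 genes. This depended on the window and the peaks used: within 200 kb it had 7, below Nes alone with 11, and with the wider 50% of peaks it had 1 and Id4 had 0. The gene, which is active in young neural stem cells and declines with age, covers 115202 bp on the minus strand (chr10:120361268-120476469). Its window held 2 MGE peaks, or 6.35 per Mb, and 4 telencephalon peaks, or 12.7 per Mb. As high a density or higher was found around 75.7% of protein-coding genes in MGE and 68.0% in telencephalon. A single position was shared, 90023 bp past the 3′ end in MGE (chr10:120270884-120271245) and 89983 bp past it in telencephalon (chr10:120270893-120271285). The MGE list had no peak inside the gene. The telencephalon list had one of 182 bp (chr10:120392409-120392590), which lay inside the noncoding gene 9230105E05Rik as well, and 16.8% of the list was narrower. On the 5′ side the nearest peaks were 85568 bp (MGE, 244 bp wide) and 110798 bp (telencephalon) away, and neither was shared. The interval between shared peaks was 431 kb and held no other protein-coding gene.

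Id4 was the one member with more MGE than telencephalon peaks within 100 kb, 3 against 2. The direction depended on the peaks used. Without the narrowest widths the counts were 2 and 2, and with the wider 50% of peaks they were 0 and 1. With as many telencephalon as MGE peaks they were 3 and 1, and Hmga2 then had 2 and 1. With the wider 50% it was Vim that had more MGE peaks, 2 against 1. The Id4 protein blocks the DNA binding of basic helix-loop-helix factors that drive differentiation. The gene covers 4913 bp on the plus strand (chr13:48261116-48266028). Shared peaks lay on both sides of it. The upstream one was 23356 bp away in MGE (chr13:48237474-48237760, 287 bp) and 23442 bp away in telencephalon (chr13:48237510-48237674, 165 bp), inside the noncoding genes A330033J07Rik and Gm36183. The downstream one was 7774 bp away in MGE (chr13:48273802-48274045, 244 bp) and 7646 bp away in telencephalon (chr13:48273674-48274080, 407 bp). This is the peak at the start of A330048O09Rik whose sequence is printed above. An MGE peak of 267 bp, 36912 bp upstream and also inside A330033J07Rik, had no partner.

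The shared peaks around Id4 enclosed 36.0 kb, and 95.03% of protein-coding genes had an interval as long or longer. Unlike that of Nes, this interval rested on narrow peaks. The downstream MGE peak had the narrowest width of its list, and the upstream telencephalon peak was 165 bp wide. Without peaks of the narrowest widths the interval became 260 kb, with as many telencephalon as MGE peaks 606 kb, and with the wider 50% of peaks 830 kb. The plot of intervals places Nes and Id4 at the short end of all genes, with the value for all peaks.

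**Figure D2:**
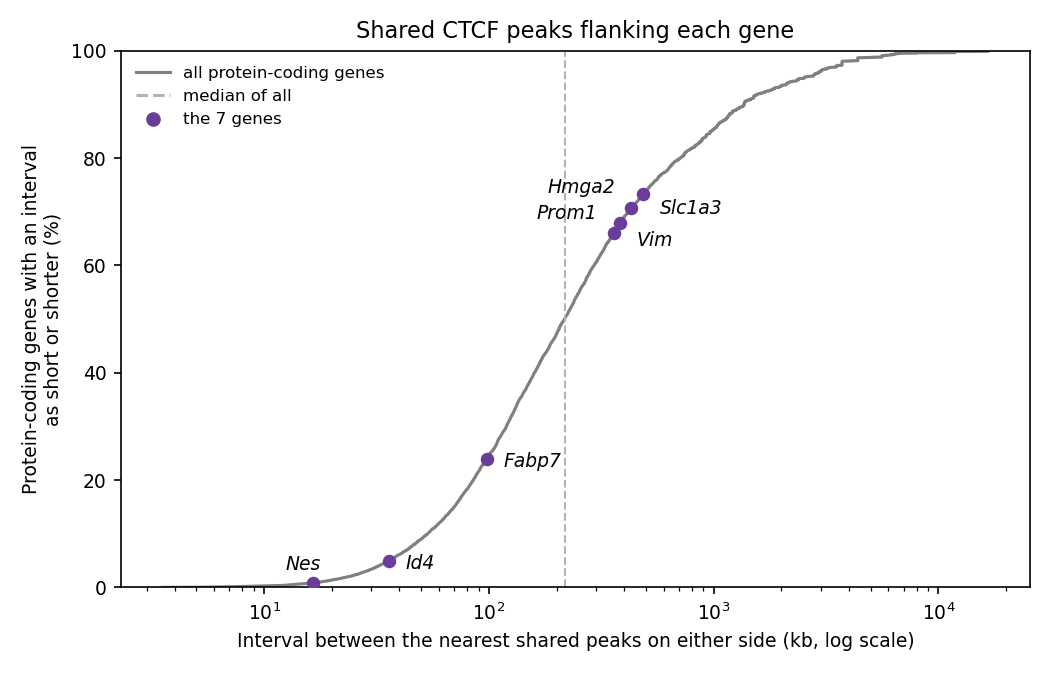
Interval between the nearest shared peaks on either side of each gene, in kb on a log scale, against the percentage of protein-coding genes with an interval as short or shorter (grey line, all genes; points, the 7 markers; dashed line, median of all genes, 217.4 kb). Nes (16.5 kb) and Id4 (36.0 kb) lie at the short end, Fabp7 (97.8 kb) below the median, and Prom1, Vim, Hmga2 and Slc1a3 (360.0 to 486 kb) above it.

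Set in order of telencephalon peaks within 100 kb, the members ran from Nes (11) through Slc1a3 (7) and Prom1 (5) to Vim, Fabp7 and Hmga2 (4 each) and Id4 (2). The MGE order was Nes (5), Fabp7 (4), then Vim, Slc1a3, Prom1 and Id4 (3 each) and Hmga2 (2). Next to each other in these orders, Nes and Slc1a3 differed by 4 telencephalon peaks and other neighbours by at most 2, and there are no replicates to give a spread. The windows also differ in size, from 203528 bp for Fabp7 to 315202 bp for Hmga2. Per Mb, Nes had 23.9 MGE and 52.5 telencephalon peaks, against medians over all protein-coding genes of 13.5 and 19.6.

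Peaks at gene ends and inside genes were counted over the 7 markers. A peak within 1 kb of either gene end was found at 2 of 7 genes in both lists, Nes and Slc1a3, against 12.1% of protein-coding genes in MGE and 19.3% in telencephalon. With ends taken as 500 bp, Nes dropped out in both lists. A peak inside the gene was found at Vim and Prom1 in MGE, 2 of 7 against 31.4% of genes, and at Vim, Slc1a3, Prom1 and Hmga2 in telencephalon, 4 of 7 against 39.1%. When the telencephalon list was reduced to as many peaks as the MGE list, keeping the widest, its count was 2 as well. Counting the gene and 10 kb on either side, a peak was found at 5 of 7 genes in MGE (29.04 to 96.3%), where Fabp7 and Hmga2 had none, and at 7 of 7 in telencephalon (59.0 to 100%). Over all protein-coding genes the shares were 51.3% and 61.3%, inside both intervals. With the wider 50% of peaks, 4 genes had such a peak in MGE and 5 in telencephalon. With 5 kb on either side the counts were also 4 and 5. With as many telencephalon as MGE peaks they were 5 and 6. The shares of all protein-coding genes were not recomputed for these other settings. The genes differ in length, with a median of 17169 bp over all protein-coding genes, and the shares were not adjusted for it.

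The unshared peaks around the markers were mostly narrow. All 16 MGE peaks wider than the list median were shared (79.4 to 100%), and of the 7 at or under it 2 were shared. In the whole MGE list 81.2% and 35.8% of such peaks were shared. The 5 unshared MGE peaks were 244 bp wide in 4 cases and 267 bp in the other. In the telencephalon list 15 of the 18 peaks wider than the median were shared (83.3%) and 3 of 19 at or under it (15.8%), against 71.3% and 22.9% in the whole list. The 3 wide telencephalon peaks without a partner were the 403 and 555 bp peaks near Nes and the 375 bp peak past the 3′ end of Prom1. Partner peaks had midpoints a median of 35 bp apart, and at most 165 bp, at the peak near Bcan. Over all pairs of the 2 lists the median was 47.5 bp and the maximum 719 bp. Sharing is defined by overlap, which by itself keeps midpoints close. The telencephalon partner was the wider in 10 of 18 pairs, and in 50.8% of all 15042 pairs.

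**Figure D3:**
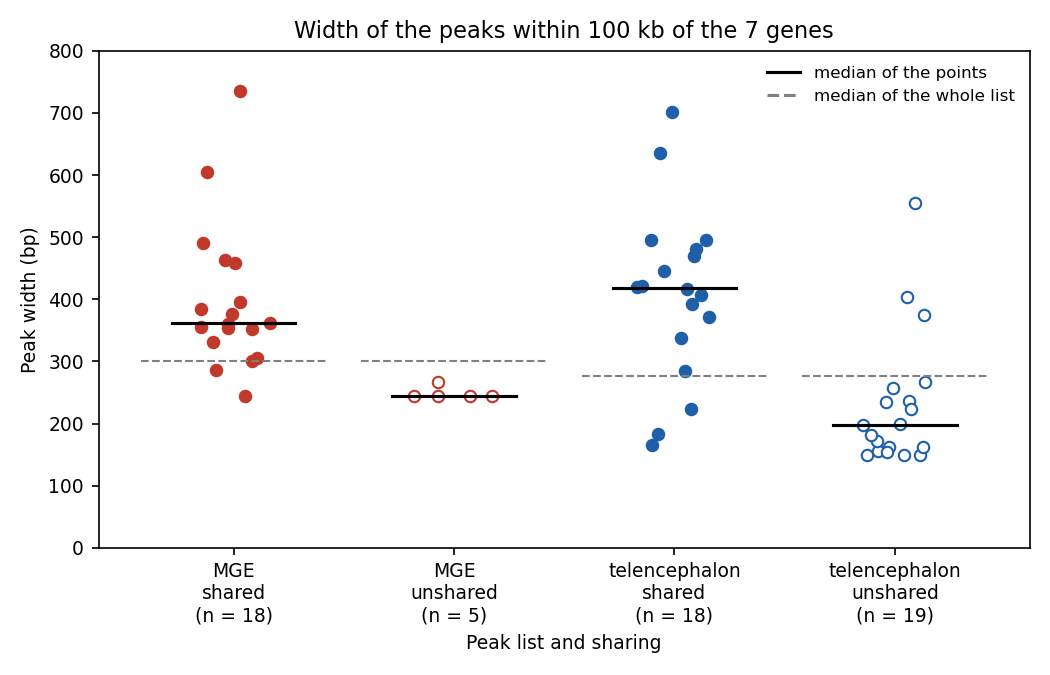
Width in bp of each peak within 100 kb of the 7 genes, by list and by whether it was shared (points, peaks; black lines, medians of the points; dashed lines, medians of the whole lists, 300 bp in MGE and 276 bp in telencephalon). The shared peaks have medians of 361.5 bp (MGE) and 418.5 bp (telencephalon), the unshared ones 244 and 198 bp.

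By position, peaks downstream of the genes were the most numerous. Downstream of the 7 genes there were 11 MGE peaks, all shared, and 23 telencephalon peaks, of which 11 were shared. Upstream there were 9 in each list, of which 5 in each were shared. Inside the genes there were 3 MGE peaks and 5 telencephalon peaks, of which 2 in each list were shared. The downstream telencephalon peaks without a partner were found at Nes, Vim, Fabp7, Slc1a3, Prom1 and Hmga2, and Id4 had none. Together, Nes and Slc1a3 held most of the downstream telencephalon peaks. Counts by side were not made over all protein-coding genes. The order of the sides and the sharing on each therefore have no background to be set against. Peaks of 1 locus are not independent of each other, and these counts are a description.

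Other genes of radial glia were counted in the same way. In a list of 30 such genes, 5 had a gene-end peak in MGE (16.7%, 5.64 to 34.7%) and 8 in telencephalon (26.7%, 12.3 to 45.9%). The shares of all protein-coding genes, 12.1% and 19.3%, lie inside these intervals. The 5 with shared peaks in both lists were Hes1, an effector of Notch signalling, Msi1, an RNA-binding protein of neural progenitors, the fibroblast growth factor receptor genes Fgfr1 and Fgfr2, and Ttyh1, which encodes a membrane protein. The Ttyh1 peak covered the 5′ end of the gene and was 438 bp wide in MGE (chr7:4119272-4119709) and 667 bp in telencephalon (chr7:4118996-4119662). The shared MGE peaks at Hes1, Fgfr1 and Fgfr2 were narrow, at 248, 246 and 244 bp, and that at Msi1 was 354 bp wide. Fgfr3, the integrin gene Itgb1 and Lrig1 had a gene-end peak in telencephalon and not in MGE, of 235, 248 and 157 bp. In the gene or within 10 kb, 19 of 30 had an MGE peak (63.3%, 43.9 to 80.1%) and 25 of 30 a telencephalon peak (83.3%, 65.3 to 94.4%). Over all protein-coding genes the shares were 51.3%, inside the MGE interval, and 61.3%, below the telencephalon interval, with neighbouring genes and gene length not considered. A peak inside the gene was found at 11 of 30 in MGE (36.7%, 19.9 to 56.1%) and 16 of 30 in telencephalon (53.3%, 34.3 to 71.7%), and 31.4% and 39.1% of all protein-coding genes lie inside these intervals. In 1 of the 6 comparisons made for this list, the share of all protein-coding genes lay outside the interval. No test was made, and the list was chosen with earlier results of these data known. With the wider 50% of peaks, 17 of 30 had a telencephalon peak in the gene or within 10 kb, without a recomputed background.

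A list of 29 paralogs of the markers and genes linked to Hmga2 was also examined. In MGE 2 of 29 had a gene-end peak (6.90%, 0.846 to 22.8%) and in telencephalon 4 of 29 (13.8%, 3.89 to 31.7%), and the 12.1% and 19.3% of all protein-coding genes lie inside these intervals. The genes with such peaks in both lists were Nefh and Synm, which encode intermediate filament proteins. The 6 other intermediate filament genes of the list, Des, Gfap, Ina, Nefl, Nefm and Prph, had no gene-end peak in either list, nor did Vim. The Synm peak lay across its 5′ end and was 527 bp wide in MGE (chr7:67759712-67760238) and 428 bp in telencephalon (chr7:67759666-67760093). Fabp5 and Id2, paralogs of Fabp7 and Id4, had a gene-end peak in telencephalon and not in MGE. Those peaks were 192 and 150 bp wide. In the gene or within 10 kb, 16 of 29 had an MGE peak (55.2%, 35.7 to 73.6%) and 22 of 29 a telencephalon peak (75.9%, 56.5 to 89.7%), with the 51.3% and 61.3% of all protein-coding genes inside both intervals.

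Likeness between a marker and these 59 genes was counted as the number of lists, of 2, in which both the gene-end and the inside calls were equal. None of the 59 matched Nes in both lists. A peak within 1 kb of the 5′ end in both lists, as at Nes, was also found at Fgfr2, Ttyh1 and Synm. No strand was known for Hes1, Msi1, Fgfr1 and Nefh, so their end peaks could not be placed at the 5′ or 3′ end. Hes1, Msi1, Fgfr1 and Nefh are therefore left out of this comparison of 5′ ends. Fgfr2, Ttyh1 and Synm differed from Nes by a peak inside the gene, at Fgfr2 in the telencephalon list alone. At Ttyh1 and Synm the peak at the 5′ end itself overlapped the gene, so it counted as a peak inside as well. Fgfr2 matched Slc1a3 in both, with a gene-end peak in each list and a peak inside in telencephalon, but its gene-end peak lay 309 bp (MGE) and 224 bp (telencephalon) before the 5′ end and that of Slc1a3 past the 3′ end. Vim and Prom1, with a peak inside in both lists and none at the ends, were matched by 11 genes. Among them were Ptprz1, Gli3 and the Slc1a3 paralogs Slc1a2 and Slc1a4. Hmga2 was matched by 8 genes, including Notch1 and Egfr, and Fabp7 and Id4 by 27, including Sox2, Pax6 and Hes5.

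**Figure D4:**
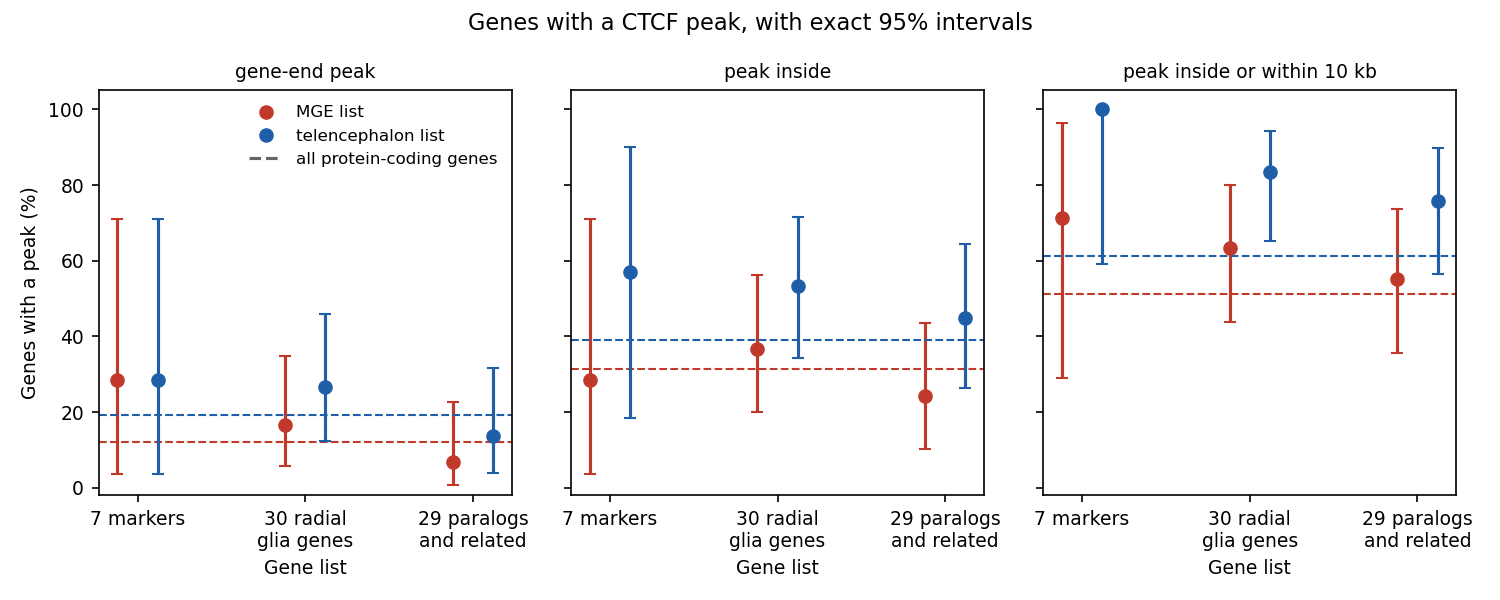
Percentage of genes with a CTCF peak within 1 kb of a gene end (left), inside the gene (middle) and inside or within 10 kb (right), for the 7 markers, 30 other radial glia genes and 29 paralogs and related genes. Red points are the MGE list and blue points the telencephalon list, bars are exact 95% intervals and dashed lines are all protein-coding genes; the right panel shows 7 of 7 markers with a telencephalon peak and 5 of 7 with an MGE peak.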

How the data were processed

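Files of 2 CTCF libraries were used, 1 per tissue, and inputs were not analysed here. The submitters' processing notes name the build mm10, MACS2 (version 2.1.1.20160309) and Bowtie2 (version 2.3.2). For threshold, control and filters, the sources used here give nothing. The authors' deposited values are the start and end position of each peak. The files' starts, which count from 0, were raised by 1.

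Peaks and genes on chromosomes 1 to 19, X and Y were kept. Positions came from RefSeq genes on GRCm38.p6, without exons or introns, and strand and starts from the RefSeq promoter windows, which exist for 17492 of 21887 protein-coding genes. Distances are the bases from the nearest edge of a peak to the gene. The interval of a gene runs between the nearest shared MGE peaks wholly outside it. Python 3.11.15, pandas 2.3.3 and scipy 1.17.1 were used, and the counting was checked against a direct search on simulated data.

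The members and lists were chosen with earlier results of these data known. Text names all members, every listed gene with a gene-end peak, neighbours with a peak at an end in the window, and the nearest peaks. Alternatives were smaller peak sets, other windows and other rules of sharing.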

Additional observations from a re-analysis of the deposited data

How the results depend on the processing

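No paired analysis was possible because each tissue had 1 CTCF library and no test was made. Of 95 recomputed summary values, 75 stayed within 1.5 times the reported count, or within the interval of the reported share, and 20 did not. Of the recomputed values of single genes, 76 stayed and 29 did not, among them Hmga2 (telencephalon peaks within 100 kb from 4 to 1) and Prom1 (from 5 to 2) with the wider 50% of each list. With the wider 50% of each list, which also removes partners, 18 telencephalon peaks lay within 100 kb of the 7 genes, 77.8% of them shared, and 2 members had a telencephalon peak inside. The radial glia list then had gene-end peaks at 2 genes (MGE) and 5 (telencephalon), and the paralog list at 1 gene in telencephalon, with 13 within 10 kb. With as many telencephalon as MGE peaks, 2 members had a telencephalon peak inside. Without peaks of the narrowest width, 94.4% of MGE peaks were shared. Windows of 200 kb held 40 MGE and 59 telencephalon peaks. With gene ends of 500 bp, 1 member had a gene-end peak in each list, as did 1 paralog in MGE and 5 radial glia genes in telencephalon. With 5 kb ends the counts were 4 members in telencephalon, 14 and 16 radial glia genes and 13 and 16 paralogs in MGE and telencephalon. The shares of all protein-coding genes were not recomputed at any of these settings. The changed counts of genes therefore have no background to be set against. Other rules of sharing moved none of the 10 values they touched by that much. The unknown depth and threshold limit any reading of a missing peak.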
